A study of Homo sapiens with 4 samples.

Results

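The extracellular matrix and matricellular genes described here are 42 genes that were listed by name. They comprise 12 genes of matricellular and soluble adhesion proteins, 5 of crosslinking enzymes and 11 of the basement membrane and of heparan sulfate proteoglycans. A further 8 are of collagens, collagen IV included, and 6 of growth factor binding proteins. SDC1, SDC4 and GPC1, proteoglycans of the cell surface, were counted in the basement membrane class. Each member was found by the RefSeq accession of its probes. All 42 had at least 1 probe, and for 31 a probe stood well above background on every array, as it did for 15707 genes and transcripts in all. Well above background is the scanner software's own mark for a spot whose signal clearly exceeds that of its surroundings.

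HCT116 is a human colon carcinoma cell line. By repeated transwell migration, 2 subpopulations were enriched from it, the MG cells, which migrated through the membrane, and the non-MG cells, which stayed on the upper side. Both kinds are bulk selections of 1 line, not clones. Each was exposed to 5 µM 5-azacytidine or to vehicle for 48 h, and its RNA was hybridised to a one-colour Agilent whole-genome array, which gave 4 arrays with 1 array per condition. 5-Azacytidine is a cytidine analog that is built into RNA and DNA and traps DNA methyltransferases, so that cytosine methylation is lost as cells divide. The comparisons ask how the matrix genes differ between migrating and non-migrating cells, and how each kind of cell responds to the drug.

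The basement membrane is the thin sheet on which epithelial cells sit. It is built from laminin trimers, collagen IV, nidogen and heparan sulfate proteoglycans. Matricellular proteins are secreted into the matrix without forming its scaffold, and they act on adhesion, migration and growth factor activity. Carcinoma cells make many basement membrane components themselves, whereas fibrillar collagens in a colon tumour come mainly from fibroblasts.

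With 1 array per condition there is no replicate, so no test was possible and every ratio describes these 4 arrays. Intensities are given as deposited after background subtraction and before scaling, always in the order non-MG cells with vehicle, non-MG cells with 5-azacytidine, MG cells with vehicle and MG cells with 5-azacytidine. Log2 ratios were formed after each array was scaled to its 75th percentile, which was 87.0, 75.2, 98.7 and 96.4 in that order. The spot error beside a ratio comes from probes spotted 10 times at the same intensity. It covers the spotting and hybridisation of 1 array and leaves out differences between cultures, RNA extractions and labellings. The 4 arrays lay on 1 slide at 1 position each, so position and condition cannot be told apart. In bulk RNA, fewer cells with a transcript and less of it per cell cannot be told apart either. All 7 epithelial markers examined, such as EPCAM and KRT8, were well above background on every array, with summed intensities between 96460 and 116437, to which KRT19 contributed most. Levels of 2 of them were more than 1.5-fold lower in the MG cells in at least 1 setting, CLDN4 at -0.73 (0.07) with vehicle and -0.90 (0.07) with 5-azacytidine and CDH1, E-cadherin, at -0.66 (0.03) and -0.49 (0.03). Of 9 fibroblast markers, 8, including COL1A2, COL3A1 and DCN, were well above background on no array, and THY1 on some, with a summed intensity of 22.8 to 43.1. Of 5 endothelial markers VWF alone was detected on all 4 arrays, and of 5 leukocyte markers 2 were detected on all 4 and 1 on some. These dim markers were higher with the drug, CD14 by 0.87 (0.28) in the non-MG and 1.002 (0.38) in the MG cells, CD68 by 0.30 (0.18) and 0.82 (0.16) and VWF by 0.36 (0.09) and 0.70 (0.09). The part of any of these shifts in the member ratios was not tested.

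The sequences in front of the transcription start are shown for members whose ratios carry the results below, because DNA methyltransferases, which 5-azacytidine traps, methylate cytosine mainly in CG dinucleotides. RefSeq promoter windows (assembly GRCh38.p14) were used for 35 of the 42 members. The motif CG, which reads the same on both strands, occurred in 93.9% of all 35116 windows of 250 bases before a start. The median was 11 CG per window over all windows, with quartiles of 3 and 23, and 18.5 over the 46 windows of the members. Capitals mark each CG. The windows of MIA, which stood furthest above the non-MG cells, and of IGFBP3, which had the largest drug ratio of the members on all 4 arrays, are shown for their contrast in CG number. SPARC and IGFBP6 were both more than 1.5-fold higher in the MG cells, and their CG numbers lie between the quartiles of all windows.
MIA, chr19:40774910-40775159, plus strand, 1 CG: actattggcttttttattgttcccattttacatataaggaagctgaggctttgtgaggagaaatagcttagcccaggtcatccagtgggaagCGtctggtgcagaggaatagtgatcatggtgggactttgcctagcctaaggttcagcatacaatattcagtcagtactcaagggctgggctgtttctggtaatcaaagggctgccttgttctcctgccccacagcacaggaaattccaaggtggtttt
IGFBP3, chr7:45921273-45921522, minus strand, 32 CG: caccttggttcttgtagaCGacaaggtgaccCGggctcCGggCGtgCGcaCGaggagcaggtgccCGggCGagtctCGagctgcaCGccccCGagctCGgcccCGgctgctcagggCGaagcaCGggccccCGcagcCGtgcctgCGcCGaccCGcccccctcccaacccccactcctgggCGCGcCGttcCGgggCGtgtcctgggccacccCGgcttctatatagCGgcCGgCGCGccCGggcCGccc
SPARC, chr5:151686916-151687165, minus strand, 7 CG: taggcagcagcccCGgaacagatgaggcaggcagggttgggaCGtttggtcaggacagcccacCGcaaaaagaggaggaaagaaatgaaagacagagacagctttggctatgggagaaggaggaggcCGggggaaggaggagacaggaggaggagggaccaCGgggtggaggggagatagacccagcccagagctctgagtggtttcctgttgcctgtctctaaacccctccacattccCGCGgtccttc
IGFBP6, chr12:53097417-53097666, plus strand, 9 CG: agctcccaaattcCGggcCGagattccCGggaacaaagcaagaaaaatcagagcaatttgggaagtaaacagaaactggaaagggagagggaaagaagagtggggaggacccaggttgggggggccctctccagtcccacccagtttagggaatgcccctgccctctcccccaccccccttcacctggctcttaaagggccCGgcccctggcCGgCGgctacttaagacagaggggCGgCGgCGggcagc
The bases that separate the start of COL4A1, read on the minus strand from 110307157, from that of COL4A2, read on the plus strand from 110307284, are shared by both promoters. These 126 bases hold 20 CG and are shown because the 2 genes differed in direction in the MG cells.
COL4A1 and COL4A2, chr13:110307158-110307283, plus strand, 20 CG: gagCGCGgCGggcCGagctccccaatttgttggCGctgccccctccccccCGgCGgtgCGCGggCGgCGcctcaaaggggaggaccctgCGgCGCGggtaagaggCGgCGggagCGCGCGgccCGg

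**Figure D1:**
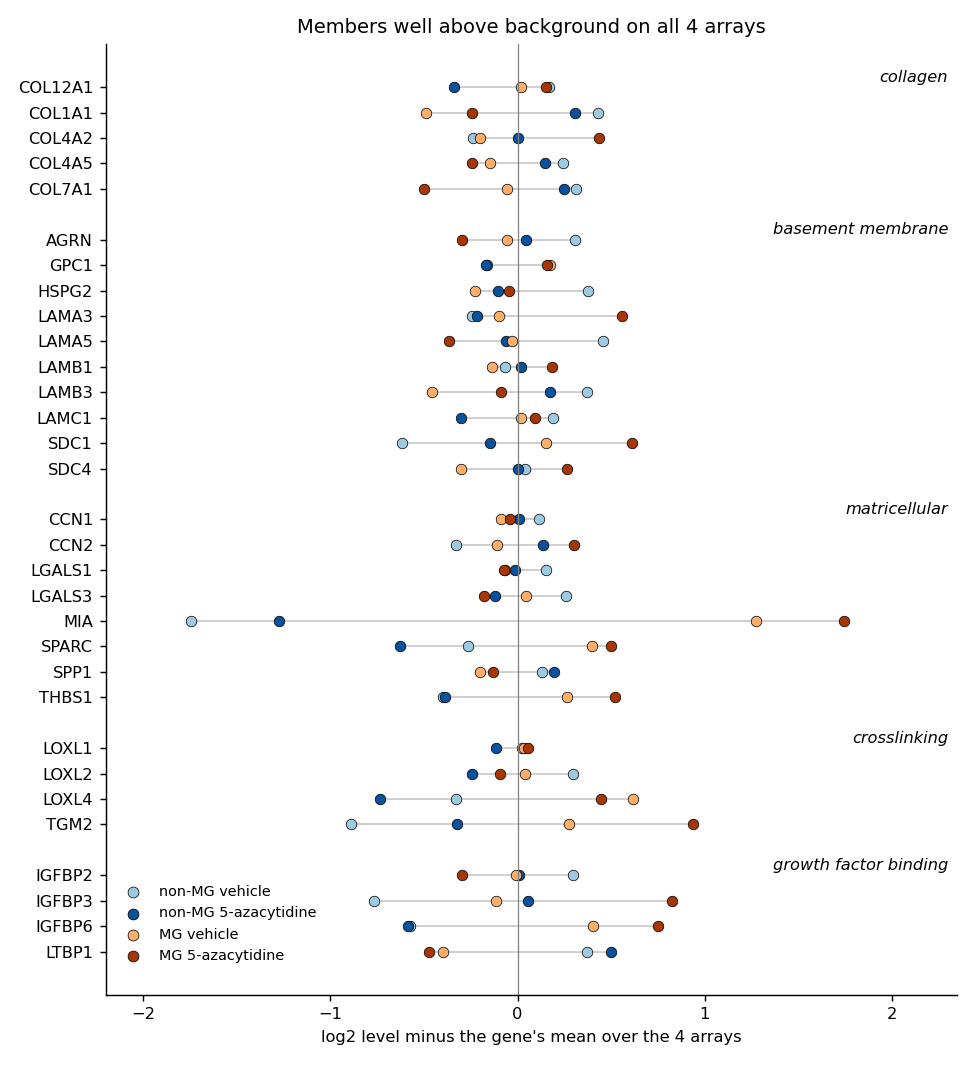
Log2 level of the 31 members well above background on all 4 arrays, each minus its own mean over the 4 arrays (horizontal axis), by class, with 1 point per array and a line over the range. MIA spans the widest range, with both MG arrays to the right of both non-MG arrays, while most basement membrane genes span less than 1 log2 unit.

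Compared with the non-MG cells, the MG cells had higher levels of MIA, TGM2, IGFBP6 and 5 other members in both settings, while the share of members that were lower was near that of all genes. With vehicle, 8 of the 31 measured members were more than 1.5-fold higher in the MG cells (MIA, TGM2, IGFBP6, LOXL4, SDC1, SPARC, THBS1 and IGFBP3), against 5.68% of all genes. A further 4 were more than 1.5-fold lower (COL1A1, LAMB3, LTBP1 and HSPG2), against 8.24% of all genes. With 5-azacytidine, 9 were higher, the same 8 and LAMA3, against 5.74%, and 2 were lower (LTBP1 and COL7A1), against 7.33%. The vehicle and 5-azacytidine comparisons use no array in common. All 8 were higher in both, against 2.71% of all genes, and LTBP1 alone was lower in both, against 3.81%. Members were chosen with earlier results of these data known, so neither these counts nor those with the drug below are independent evidence. Of 49 other matrix genes, described below, 3 were higher and 11 lower with vehicle, and 5 were higher and 11 lower with 5-azacytidine. Across the 31 measured members the 2 cell-type ratios had a Pearson r of 0.94 and a Spearman rho of 0.90, and across all 15707 genes 0.72 and 0.73. These are descriptions across genes, which are not independent replicates. Without MIA, the most extreme point, r over the members was 0.90 and rho 0.89. The median ratio of the measured members was -0.17 with vehicle, against -0.01 for all genes, and 0.17 with 5-azacytidine, against 0.02. Centring each array on its median instead of its 75th percentile shifted every vehicle ratio by 0.20 and every 5-azacytidine ratio by 0.26. The vehicle median of the members became 0.02, and because all genes shifted alike, the members' gap to all genes stayed the same. HSPG2 and LTBP1 with vehicle and COL7A1 with 5-azacytidine then lay inside 1.5-fold. A normexp background correction adds an offset of 50 and so draws dim signals together. With it MIA, TGM2, IGFBP6 and SDC1 remained higher with vehicle and LAMB3 lower. With 5-azacytidine, IGFBP3, LAMA3 and LOXL4 then no longer passed 1.5-fold upward, nor COL7A1 and LTBP1 downward.

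**Figure D2:**
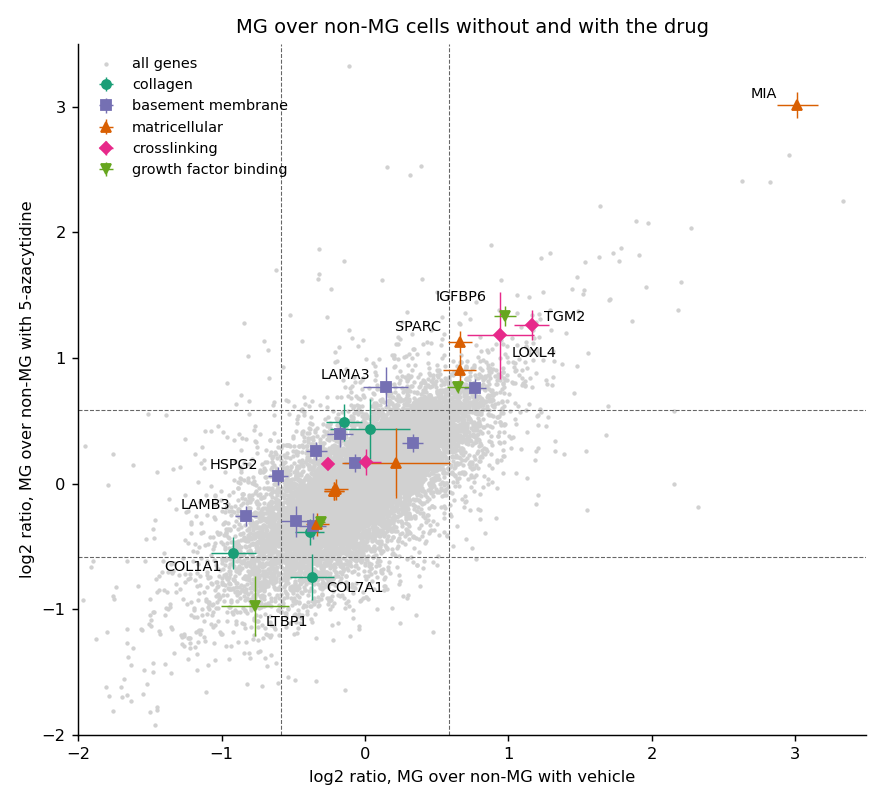
Log2 ratio between MG and non-MG cells under vehicle (horizontal axis) and under 5-azacytidine (vertical axis), with members coloured by class, bars of 1 spot error, grey points for all genes (those beyond the axes are not drawn) and dashed lines at 1.5-fold. MIA lies at 3.02 on both axes, and LAMB3, HSPG2 and COL1A1 pass the left line but not the lower one.

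Among matricellular genes, the widest difference was that of MIA, a small secreted protein that binds fibronectin and integrins and loosens cell attachment. MIA gave intensities of 55.2, 66.2, 508 and 687. Both MG arrays were thus above both non-MG arrays, with a log2 ratio of 3.02 (spot error 0.14, 8.1-fold) with vehicle and of 3.02 (0.10) with 5-azacytidine. The drug ratio of MIA was 0.47 (0.16) in the non-MG cells and likewise 0.47 (0.09) in the MG cells, short of 1.5-fold in both.

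SPARC, a collagen-binding glycoprotein, gave 499.9, 336, 897 and 942. The MG cells were higher by 0.66 (0.09, 1.58-fold) with vehicle and by 1.13 (0.09, 2.18-fold) with 5-azacytidine. The wider gap with the drug went with a ratio of -0.36 (0.09) for 5-azacytidine over vehicle in the non-MG cells, while the MG cells gave 0.10 (0.08). THBS1, thrombospondin, which binds matrix proteins and can release TGF-beta from its latent form, gave 89.1, 77.6, 159.7 and 187. Its ratios between the cell types were 0.66 (0.11) with vehicle and 0.91 (0.11) with 5-azacytidine. A 2nd THBS1 probe was well above background in the MG cells with vehicle alone, where it was at least 1.57-fold higher than in the non-MG cells. With 5-azacytidine this probe gave a cell-type ratio of 0.24 (0.45), with neither array well above background. When it was averaged in, the THBS1 ratio with 5-azacytidine was 0.57, inside 1.5-fold. With dim signals also raised to the lowest that counts as well above background, the THBS1 ratio was 0.46. Within the MG cells this probe gave -0.44 (0.38) for 5-azacytidine over vehicle, whereas the brighter probe gave 0.26 (0.10). The 2 probes thus differ in sign, the dim one by about its spot error.

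ECM1, a secreted glycoprotein that binds perlecan and other basement membrane proteins, gave 10.4, 12.9, 23.3 and 35.3 and failed the background mark on the non-MG array with vehicle only. The MG array with vehicle stood 1.98-fold (log2 0.98, spot error 0.38) above the dim signal of the non-MG cells. With 5-azacytidine ECM1 had a log2 ratio of 1.09 (0.35) between the cells. Its drug ratio was 0.63 (0.24) in the MG cells. In the non-MG cells the treated array gave 0.52 (0.45) against the dim signal with vehicle, about the size of its spot error. Vitronectin (VTN), a serum adhesion protein made mainly in liver, gave 12.7, 11.3, 7.67 and 9.88 and cleared background on both non-MG arrays only. The MG cells were at least 1.26-fold lower with vehicle and at least 1.23-fold lower with 5-azacytidine. All 4 of its intensities lay near the lowest that counted as well above background, 9.95 to 11.8 depending on the array. TGFBI, an integrin-binding protein induced by TGF-beta, gave 2.13, 3.52, 5.20 and 17.3 and was well above background in the MG cells with 5-azacytidine only. There it was at least 1.35-fold higher than in the treated non-MG cells and at least 1.54-fold higher than in the MG cells with vehicle.

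The other 5 matricellular genes on all 4 arrays stayed within 1.5-fold in every comparison. CCN1 and CCN2 encode cysteine-rich proteins that are targets of the YAP pathway. CCN1 had cell-type ratios of -0.20 (0.08) with vehicle and -0.05 (0.08) with 5-azacytidine. CCN2 was dim, with 13.6, 16.2, 17.9 and 23.3, and its cell-type ratios of 0.22 (0.38) and 0.17 (0.28) were smaller than their spot errors. Its drug ratios were 0.47 (0.38) in the non-MG and 0.41 (0.28) in the MG cells. SPP1, osteopontin, had a ratio of -0.33 (0.08 with vehicle, 0.09 with 5-azacytidine) between the cell types in both settings and drug ratios of 0.06 and 0.07. The galectins LGALS1 and LGALS3, which bind galactose-bearing glycans, both gave -0.22 (0.07) with vehicle and -0.06 (0.07) with 5-azacytidine between the cell types. Tenascin C (TNC) was well above background on no array, with 2.10 to 3.20. ECM1 and MIA, and TGM2, LOXL2 and IGFBP7 described below, are genes that the study itself names from these arrays, so neither their differences nor their part in the counts above is independent evidence.

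Of the crosslinking enzymes, TGM2 and LOXL4 were higher in the MG cells in both settings, and neither LOXL1 nor LOXL2 passed 1.5-fold in any comparison. TGM2, the transglutaminase that joins glutamine to lysine side chains of matrix proteins, gave mean intensities over its 2 probes of 46.6, 59.4, 118 and 183. It was 2.24-fold higher in the MG cells with vehicle (log2 1.16, spot error 0.12) and 2.40-fold higher with 5-azacytidine (1.26, 0.12). Its drug ratios were 0.56 (0.15) in the non-MG cells, just inside 1.5-fold, and 0.66 (0.08) in the MG cells. The 2 probes, which match different transcript records, both rank the MG arrays above the non-MG arrays and part on the drug. One gave 72.0, 132, 218 and 463, with drug ratios of 1.09 and 1.12. The other gave 30.2, 26.8, 64.3 and 72.3, with drug ratios of 0.04 and 0.20. The mean over both probes therefore rests on the first for its drug ratio.

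LOXL4, a copper-dependent amine oxidase that crosslinks collagen and elastin, gave 21.8, 14.2, 47.6 and 41.2. Its cell-type ratios were 0.95 (0.24) with vehicle and 1.18 (0.35) with 5-azacytidine. With normexp they were 0.24 and 0.28, inside 1.5-fold. Its drug ratios of -0.41 (0.38) and -0.18 (0.18) were about the size of their spot errors. LOXL2, of the same family and spotted 10 times, gave 1255, 745, 1193 and 1062. Treated non-MG cells were the low array, with a drug ratio of -0.54 (0.02), against -0.13 (0.02) in the MG cells. The non-MG drug ratio of LOXL2 was -0.60 with normexp and -0.64 with median centring, past 1.5-fold in both. Its cell-type ratio turned from -0.25 (0.02) with vehicle to 0.15 (0.02) with the drug. LOXL1 stayed between -0.14 and 0.17 in all comparisons. LOX itself, with 2.37 to 3.02, was well above background on no array.

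In the basement membrane class, SDC1 was the only gene more than 1.5-fold higher in the MG cells in both settings. SDC1, a syndecan that carries heparan sulfate on epithelial cell surfaces, gave 786, 943, 1520.2 and 2044. Its cell-type ratios were 0.77 (0.08) and 0.76 (0.08), and its drug ratios were 0.47 (0.08) in the non-MG and 0.46 (0.07) in the MG cells, nearly the same in both kinds of cell. GPC1, a glypican anchored in the membrane by a lipid, had cell-type ratios of 0.33 (0.07) and 0.32 (0.07) and drug ratios within 0.02 of 0.

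LAMB3, the beta chain of the epithelial anchoring laminin, gave 1074, 806, 685 and 864. The non-MG array with vehicle was the highest and the MG array with vehicle the lowest, a ratio of -0.83 (0.08, 1.78-fold lower), while with 5-azacytidine the ratio was -0.26 (0.08). LAMA3, the alpha chain of the same laminin, gave 61.5, 54.1, 77.2 and 119. The treated MG cells alone stood high, with a drug ratio of 0.65 (0.12) in the MG cells against 0.03 (0.18) in the non-MG cells. HSPG2, which encodes perlecan, gave 2632, 1631, 1963 and 2179.5 and was 1.52-fold lower in the vehicle-treated MG cells (-0.61, 0.07) and at 0.06 (0.07) with 5-azacytidine. A further 3 HSPG2 probes were well above background on no array. When these were averaged in, the cell-type ratio with vehicle was -0.25, inside 1.5-fold, and the drug ratios were 0.29 in the non-MG and 0.54 in the MG cells. Of the laminin chains found in most epithelia, LAMA5, LAMB1 and LAMC1 had cell-type ratios between -0.48 and 0.39 and stayed within 1.5-fold. AGRN, agrin, had ratios between -0.37 and -0.24 in all 4 comparisons. NID1, nidogen, was well above background on no array.

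Of the 5 collagens on all 4 arrays, none was more than 1.5-fold higher in the MG cells at the 75th-percentile scaling with probes averaged. COL1A1, the chain of fibrillar collagen I, gave 94.3, 74.95, 56.6 and 65.6, both non-MG arrays above both MG arrays. Its ratio was -0.92 (0.16, 1.89-fold lower) with vehicle and -0.55 (0.12) with 5-azacytidine. COL1A2, the partner chain and 1 of the fibroblast markers, was well above background on no array. COL7A1, which forms the anchoring fibrils under the basement membrane, gave 68.5, 56.5, 60.1 and 43.2. The treated MG array was the lowest, at -0.75 (0.18) against the treated non-MG cells and -0.44 (0.18) against its own vehicle. COL4A5 had a cell-type ratio of -0.39 (0.10) in both settings and drug ratios of -0.09 and -0.10. COL12A1, which coats collagen fibrils, had drug ratios of -0.50 (0.13) in the non-MG and 0.13 (0.15) in the MG cells as the mean of 2 probes. Its cell-type ratios were -0.15 (0.13) with vehicle and 0.49 (0.15) with 5-azacytidine, and the 2 probes differed in direction with vehicle, at 0.22 (0.09) for the brighter and -0.51 (0.24) for the other. With 5-azacytidine the brighter probe alone gave 0.61 (0.10), past 1.5-fold, and median centring gave 0.74 for COL12A1 and 0.69 for COL4A2.

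COL4A1 and COL4A2 encode the chains that assemble into the common collagen IV trimer, and their starts lie back to back on the sequence shown above. COL4A1 gave 10.8, 4.04, 28.8 and 6.42 and was well above background in the MG cells with vehicle only. This array was 2.36-fold (log2 1.24, spot error 0.38) above the dim signal of the non-MG array with vehicle. It was at least 2.39-fold above the treated MG array. COL4A2 gave 21.6, 22.1, 25.1 and 38.2, with the treated MG array the highest and a drug ratio of 0.64 (0.24) in the MG cells. In the MG cells the 2 neighbours thus lay on opposite sides of their vehicle array, each on 1 dim probe. COL5A1 (2 probes) and COL17A1 were well above background on no array.

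The growth factor binding proteins held IGFBP3, the gene with the largest drug ratio among the members on all 4 arrays. They also held IGFBP7, whose ratio in the non-MG cells, against a signal not well above background, was larger still. IGFBP3, the main carrier of insulin-like growth factors in serum, was spotted 10 times and gave 21.5, 32.8, 38.2 and 71.7. Its drug ratios were 0.82 (0.07, 1.77-fold) in the non-MG and 0.94 (0.05, 1.92-fold) in the MG cells, and it was higher in the MG cells by 0.65 (0.07) with vehicle and 0.77 (0.05) with the drug. The SD between its 10 spots was 0.38 on the non-MG array with vehicle and 0.06 to 0.15 on the other arrays. The first exceeds the 0.20 typical of that intensity, so the spot errors of ratios with that array are too low for this probe. The lowest spot of the treated MG array, at -0.55 on the scaled log2 axis, lay above the highest spot of each other array. IGFBP6, which prefers insulin-like growth factor II, gave 533, 457, 1188 and 1479.9, with cell-type ratios of 0.98 (0.08, 1.97-fold) and 1.34 (0.08, 2.52-fold). Its drug ratio was -0.01 (0.09) in the non-MG and 0.35 (0.07) in the MG cells.

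IGFBP7, which binds these growth factors weakly and is deposited in vessel walls, gave 13.4, 51.3, 2.90 and 12.6 and was well above background in the treated non-MG cells only. There it was 4.43-fold (log2 2.15, spot error 0.35) above the dim signal with vehicle. It was 5.24-fold (2.39, 0.35) above the dim signal of the treated MG cells. The drug ratio of IGFBP7 in the MG cells was likewise 2.15 (0.39), with neither array well above background. LTBP1, which tethers latent TGF-beta to the matrix, gave 42.7, 40.4, 28.4 and 26.4, both non-MG arrays above both MG arrays, with ratios of -0.77 (0.24) and -0.97 (0.24). A 2nd LTBP1 probe was well above background on no array, and when it was averaged in, the ratio with 5-azacytidine was 0.16. IGFBP2, at intensities of 7849 to 11099, was at -0.31 to -0.29 (0.02 each) in all 4 comparisons. IGFBP4 was well above background on no array.

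**Figure D3:**
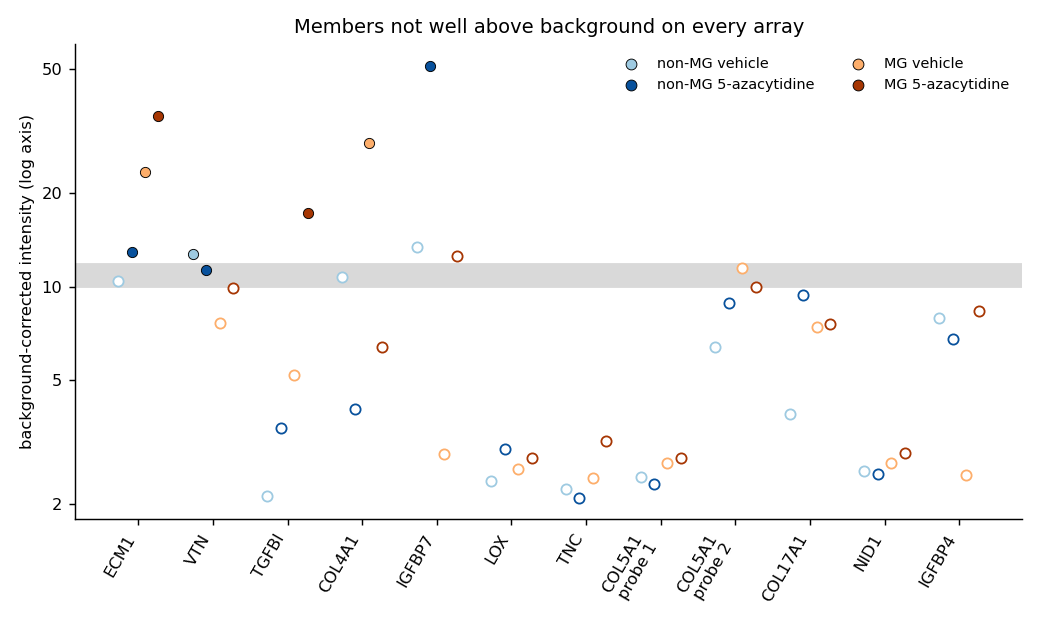
Background-corrected intensity on a log axis of the members not well above background on every array, with 1 point per array and filled points where the spot was well above background. The grey band spans the lowest intensity that counted as well above background on each array, 9.95 to 11.8. IGFBP7 in treated non-MG cells and COL4A1 in MG cells with vehicle stand above their other arrays.

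Most matrix genes stayed within 1.5-fold of vehicle after 5-azacytidine. In the non-MG cells IGFBP3 was the 1 measured member more than 1.5-fold higher with the drug, against 1.9% of all genes, and 0 were lower, against 1.68%. In the MG cells 4 were higher (IGFBP3, TGM2, LAMA3 and COL4A2), against 3.02%, and 0 were lower, against 2.1%. SDC4, a syndecan of focal adhesions, lay just inside the threshold in the MG cells at 0.56 (0.07). IGFBP3 was higher in both kinds of cell, against 0.815% of all genes, and 0 members were lower in both, against 0.312%. Across the 31 measured members the drug ratios in the non-MG and MG cells, which share no array, had a Pearson r of 0.71 and a Spearman rho of 0.64, and over all genes 0.45 and 0.37. With the normexp correction no member was more than 1.5-fold higher with the drug in either kind of cell, IGFBP3 included.

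**Figure D4:**
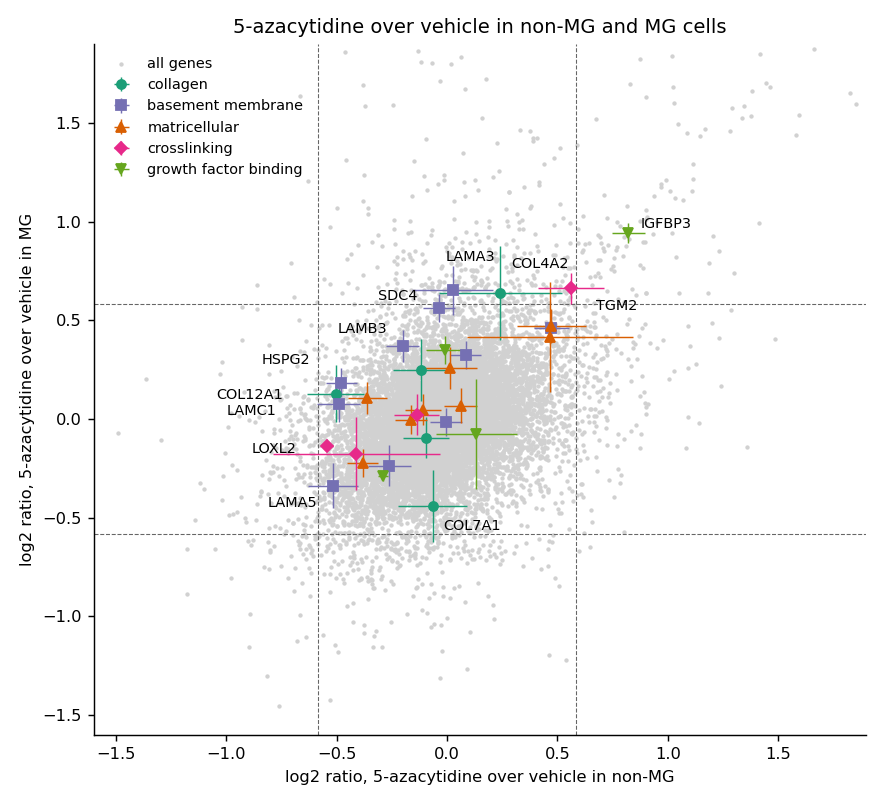
Log2 ratio of 5-azacytidine over vehicle in non-MG cells (horizontal axis) and in MG cells (vertical axis), with members coloured by class, bars of 1 spot error, grey points for all genes (those beyond the axes are not drawn) and dashed lines at 1.5-fold. IGFBP3 is past both lines, and HSPG2, LAMC1, COL12A1 and LAMB3 are among the members left of 0 on the horizontal axis and above 0 on the vertical one.

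For most basement membrane genes the MG cells had the higher drug ratio. The drug ratio in the MG cells minus that in the non-MG cells, which equals the change of the cell-type ratio with the drug, had a median of 0.40 on the log2 scale over the 10 measured basement membrane genes. It was 0.16 over all 31 measured members and 0.02 over all genes, whose quartiles were -0.14 and 0.18. Above the upper quartile of all genes lay 7 of the 10 (HSPG2, LAMA3, SDC4, LAMB3, LAMC1, LAMB1 and LAMA5), and 0 lay below the lower quartile. HSPG2 differed by 0.66 (0.10), LAMA3 by 0.63 (0.22), SDC4 by 0.60 (0.10), LAMB3 by 0.57 (0.11) and LAMC1 by 0.57 (0.13). AGRN, GPC1 and SDC1 lay between -0.01 and 0.03. SDC4 gave 1289, 1086, 1156 and 1669.9, with the treated MG array the highest, and LAMC1 gave 301, 185, 303 and 312, with the treated non-MG array the lowest. For HSPG2, LAMB3 and, among the matricellular genes, SPARC, which differed by 0.47 (0.12), the drug ratio was below 0 in the non-MG and above 0 in the MG cells by more than the spot error on both sides. COL12A1 differed by 0.63 (0.19). Over the collagens the median was 0.37 and over the growth factor binding proteins 0.06. Of all 31 measured members 15 lay above the upper quartile of all genes and 2 (COL7A1 and LTBP1) below the lower one. All 4 arrays enter this difference, so a shift of 1 array would move every gene of the list. Under the other background corrections, scalings and filters tried, the basement membrane median lay between 0.24 and 0.46.

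A wider list of 100 other matrix genes, none of them a member, was measured in the same way. Of these, 49 had a probe well above background on each of the 4 arrays. Their median difference in drug ratio was 0.18, with 25 of 49 above the upper quartile of all genes and 8 below the lower one. Of the 13 other basement membrane genes, 6 lay above, DAG1 among them, and 4 below, with a median of 0.09 and a range from -0.32 (FRAS1) to 0.82 (DAG1). Between the cell types with vehicle, 3 of the 49 were more than 1.5-fold higher in the MG cells and 11 lower, against 5.68% and 8.24% of all genes. With 5-azacytidine 5 were higher and 11 lower, against 5.74% and 7.33%. Higher in both, against 2.71% of all genes, were VCAN, the proteoglycan versican, at 1.91 (0.15) and 1.82 (0.15), and LOXL3, at 0.61 (0.12) with vehicle. Lower in both were 5, against 3.81% of all genes. Among these 5 were EFEMP2, an elastic fibre protein, at -1.66 (0.16) and -1.69 (0.16), and THBS3, at -1.09 (0.16) with vehicle. The collagen prolyl hydroxylase P4HA1, at -0.96 (0.08) with 5-azacytidine, was another. COL13A1 was at 0.90 (0.03) with 5-azacytidine. With the drug, 1 was higher and 0 lower in the non-MG cells, against 1.9% and 1.68% of all genes. In the MG cells 2 were higher and 1 lower, against 3.02% and 2.1%. COL9A2 was the highest in both, at 0.91 (0.24) and 1.02 (0.16). In the non-MG cells THBS4 was at 0.37 (0.28), NTN4 at -0.43 (0.16) and COL10A1 at -0.40 (0.38). In the MG cells the dystroglycan gene DAG1 was at 0.65 (0.09), FRAS1 at -0.71 (0.09) and COL4A4 at -0.42 (0.10).

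Members with many and with few CG before their start lay on both sides of 0 in the drug comparisons. IGFBP3, with 32 CG, had the largest ratio of the plotted members in both kinds of cell. LAMA5, with 32 CG as well, gave -0.52 (0.11) in the non-MG and -0.34 (0.11) in the MG cells, and HSPG2, with 33, gave -0.48 (0.07) and 0.18 (0.07). MIA, with 1 CG in the window shown and 3 in its other window, gave 0.47 in both, and SDC1, with 21 and 23 in its 2 windows, gave 0.47 and 0.46. The motif TATAAA, searched on both strands, occurred in 10.9% of the members' windows and in 10.7% of all windows. CG number says nothing of methylation, which was not analysed here.

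**Figure D5:**
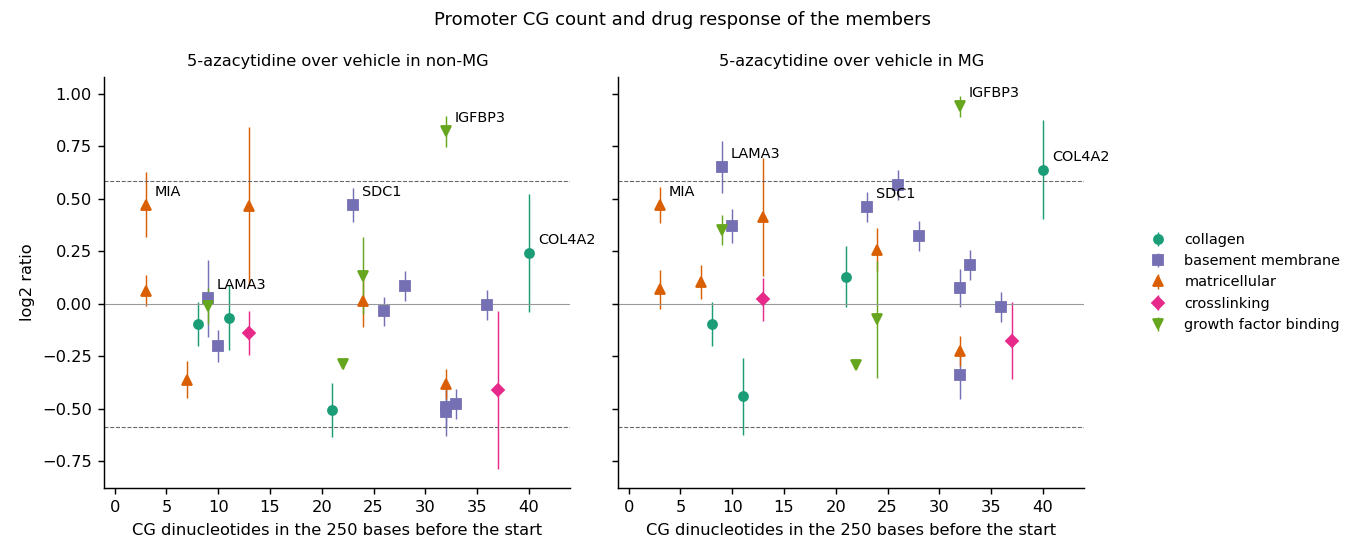
Number of CG dinucleotides in the 250 bases before the start (horizontal axis, highest count where a gene has several windows) and log2 ratio of 5-azacytidine over vehicle (vertical axis) in non-MG cells (left) and MG cells (right), for the 25 members with a window and a level on all 4 arrays, with bars of 1 spot error and dashed lines at 1.5-fold. IGFBP3 and LAMA5 share a count of 32 and lie at 0.94 and -0.34 in the MG panel.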

How the data were processed

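Total RNA (400 ng) of each sample was labelled with Cy3 and hybridised to an Agilent SurePrint G3 human array. Per the file headers the authors extracted the deposited intensities with Agilent Feature Extraction 11.5.1.1, and the processed signal used here is already background-subtracted. The authors also deposited log2 values for probes passing their own filters. Over 24161 shared probes, differences between arrays in that table equalled those of the log2 intensities within 0.01, apart from 1 constant per pair of arrays that differed by at most 0.004 from 75th-percentile scaling. The genes in that table were centred (array medians from -0.01 to 0.01), so it was used for differences only.

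Members and lists were chosen with earlier results of these data known. Control spots and outlier-flagged spots were left out, which left 50594 of 50599 probes, 30000 of them (59.3%) named through RefSeq accessions. Spots of a probe were averaged, log2 intensities were set to the 75th percentile of each array, and the probes of a gene that were well above background on all 4 arrays (19808 probes, 15707 genes) were averaged. On each array 21382 to 21881 probes were well above background and 0 spots were saturated. The number of arrays limits the precision. A member not well above background on 1 side of a comparison was set against the higher of 2 values on that array. These were its own signal and the lowest signal well above background. Where the latter was higher, the fold is a bound. Where its own signal was higher, the fold is the measured ratio, given with its spot error. Spot error started from the median SD between spots of probes spotted 10 times, by intensity (0.59 on the log2 scale at log2 intensities of 2 to 3 and 0.05 above 10). It was divided by the square root of a probe's spot number, averaged over the probes of a gene and combined in quadrature over the arrays of a ratio. Genes past 1.5-fold were counted, with no test.

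Named were all members past 1.5-fold in any comparison and those on a list drawn up for naming (SPARC, ECM1, TGM2, MIA, LOXL2, CCN2, VTN and IGFBP7). Of that list, the study's text names ECM1, TGM2, MIA, LOXL2 and IGFBP7. Of the 100 other matrix genes, the largest 2 rises and falls per comparison were named. Alternatives were normexp (offset 50, on the median spot signal, in limma 3.58.1 under R 4.3.3), quantile normalization, median centring, no background filter, a floor at each array's detection limit, only the brightest probe of a gene, the authors' values and 2-fold. Python 3.11.15 with pandas 2.3.3 was used otherwise. Scripts were tested on simulated data.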

Additional observations from a re-analysis of the deposited data

Results flagged for a closer look

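For LAMB3 and HSPG2 the ratio of 5-azacytidine over vehicle lay on opposite sides of 0 in the 2 kinds of cell, each beyond 1.96 times its spot error. LAMB3 was at -0.20 in the non-MG and 0.37 in the MG cells, a difference of 0.571 (spot error 0.11), and with quantile normalization the non-MG value was -0.13, within 1.96 times its error. HSPG2 was at -0.48 and 0.18, a difference of 0.664 (spot error 0.10), on 1 of 4 probes. With its 3 dim probes averaged in, both HSPG2 values were above 0 (0.29 and 0.54), and with normexp the MG value was 0.07, about its error. The same held for 2 of the 31 measured members (6.45%) and for 341 of all 15707 genes (2.17%). With 1 array per condition these differences were not tested.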

How the results depend on the processing

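No paired analysis was possible because each condition has 1 array. Leaving out replicates and a slide block could not be run for the same reason (1 slide), and matching probes by gene name was not run because the scanner files used here hold only the accession. With normexp, 4 measured members were higher and 1 lower in the MG cells with vehicle, 0 lower with 5-azacytidine, 0 higher and 1 lower with the drug in the non-MG cells, and 0 higher in the MG cells. With median centring, the MG cells were lower for 2 members with vehicle and 1 with 5-azacytidine, and the drug gave 4 lower (COL12A1, LAMA5, LAMC1 and LOXL2) in the non-MG cells. Without a background filter, all 42 members had a ratio, and the drug gave 4 higher and 1 lower in the non-MG cells. In the MG cells it gave 8 higher and 1 lower. The members added to these drug counts were all among those not well above background on every array. LTBP1 turned from -0.97 to 0.16 in the treated cells, where its dim probe enters. Its dim probes likewise turned the drug ratio of HSPG2 in the non-MG cells from -0.48 to 0.29 and moved its vehicle ratio from -0.61 to -0.25, inside 1.5-fold. Raising signals to the detection limit, which gave 36 members a ratio, made 2 higher in the non-MG cells with the drug, IGFBP7 being added. It made 1 lower in the MG cells, COL4A1. The brightest probe gave 2 higher in the non-MG cells. At 2-fold, 2 were higher and 0 lower in the MG cells with vehicle, 5 higher and 0 lower with 5-azacytidine, and 0 higher with the drug in either kind of cell. The cause was not tested otherwise. All other counts stayed within 1.5 times their value. Of 124 single ratios, 124 moved by less than the spot error with the authors' values, 103 with quantile normalization, 55 with normexp and 49 with median centring. The recomputed difference in drug ratio, added after seeing the data, had a median over all measured members of 0.14 to 0.22.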
